A study of Saccharomyces cerevisiae with 12 samples.

Results

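Dox (doxycycline), an antibiotic of the tetracycline class, was compared with control medium across the transcriptome of budding yeast. The members are the loci in the table of Dox against control that Cuffdiff, the program behind the deposited values, marked as testable (status OK) and whose 2 group values averaged at least 10 FPKM, a count of fragments scaled for transcript length and for sequencing depth. This gave 5921 of the 7080 loci listed. A ratio could be formed for 5912 of them, and the other 9 were listed at 0 in one group. The locus nearest the level filter on the inside was DPH6, with 10.1 FPKM with Dox and 9.87 in controls, and on the outside YCS4, with 10.2 FPKM with Dox and 9.80 in controls. The comparison asks which yeast genes respond to Dox itself, since the drug is used to switch engineered Tet-Off promoters.

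The Dox group was 3 cultures in YPD, a rich glucose medium, with 1.5 μg/ml Dox, and the control group was 3 cultures in YPD alone. The study describes its cells as R1158 and the labels give BY4741, its parent. R1158 is a MATa strain with his3, leu2 and met15 mutations and a URA3::CMV-tTA insertion, so the cells of both groups carried tTA, the transactivator protein that Dox binds. No Tet-Off promoter was described in it, and no group without tTA was compared. Tet (tetracycline) and 4-ED (4-epidoxycycline, a breakdown product of Dox) were given at the same dose to 3 further cultures each and share these controls. Growth was slower under the drugs by the study's account, and cultures were harvested at a set density and not a set time, so the effect of Dox cannot be told apart from that of growth rate or time in culture.

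Each group value joins 3 libraries, and no value per library was in the table. No replicate spread, test or standard error was computed for any difference below, and Cuffdiff's own test columns were not used. The study gives mapped reads per library, but how many fragments stand behind each gene was not estimated. Here "rose" and "fell" describe members whose group values differed by at least 1.5-fold, which is a log2 ratio of 0.58 or more in size, Dox over control.

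The genes that follow are best read against the cell cycle. Budding yeast commits to division late in G1, when the transcription factors SBF and MBF switch on the genes for bud growth and for DNA synthesis. MBF binds the MluI cell cycle box (MCB, ACGCGT) and SBF the related element SCB (CGCGAAA). At the end of division, enzymes made in the daughter cell digest the wall between it and its mother. The stress response element (STRE, AGGGG) is bound by Msn2 and Msn4, which act when nutrients run low or cells are stressed.

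With Dox, 87 members rose, which is 1.47% of those with a ratio, and 136 fell, which is 2.3%. The median log2 ratio was -0.03, with quartiles of -0.18 and 0.11, and 5185 members (87.7%) differed by less than 1.3-fold. At 2-fold, 21 members were higher and 27 lower, and at 1.3-fold 4.62% were higher and 7.68% lower. With a median below 0, more members lay below 0 than above it. The counts of each list below are to be set beside these values. The filter let in 14 of the risen members with a control value under 10 FPKM, so these passed through their Dox value, and 7 fallen members with a Dox value under 10 FPKM. Short loci spread widely. The interquartile range of the log2 ratio was 0.64 over 135 members listed at 100 to under 200 bp and 0.27 over 2201 members of 1000 to under 2000 bp, and 33 of the risen and 49 of the fallen members were under 500 bp.

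Mating type genes gave a mixed check of the MATa label. STE2, the receptor such cells carry for the pheromone of the other mating type, was at 119 FPKM with Dox and 144 FPKM in controls, and STE3, the receptor of MATalpha cells, was at 5.57 FPKM with Dox and 4.77 in controls. The pheromone gene MF(ALPHA)2 of MATalpha cells was at 33.2 FPKM with Dox and 33.99 in controls, and MF(ALPHA)1 at 39.7 FPKM with Dox and 27.4 in controls. MATALPHA2 was listed at 356 FPKM with Dox and 301 in controls, and HMLALPHA2 at 355 FPKM with Dox and 303 in controls. These are copies of one sequence that HMRA2 shares in part, so their values are uncertain. LEU2 and MET17, the gene mutated in met15, were listed at 0 in both groups. HIS3 was at 69.6 FPKM with Dox and 64.5 FPKM in controls, and URA3, named in the insertion, was at 257 FPKM with Dox and 235 in controls.

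**Figure D1:**
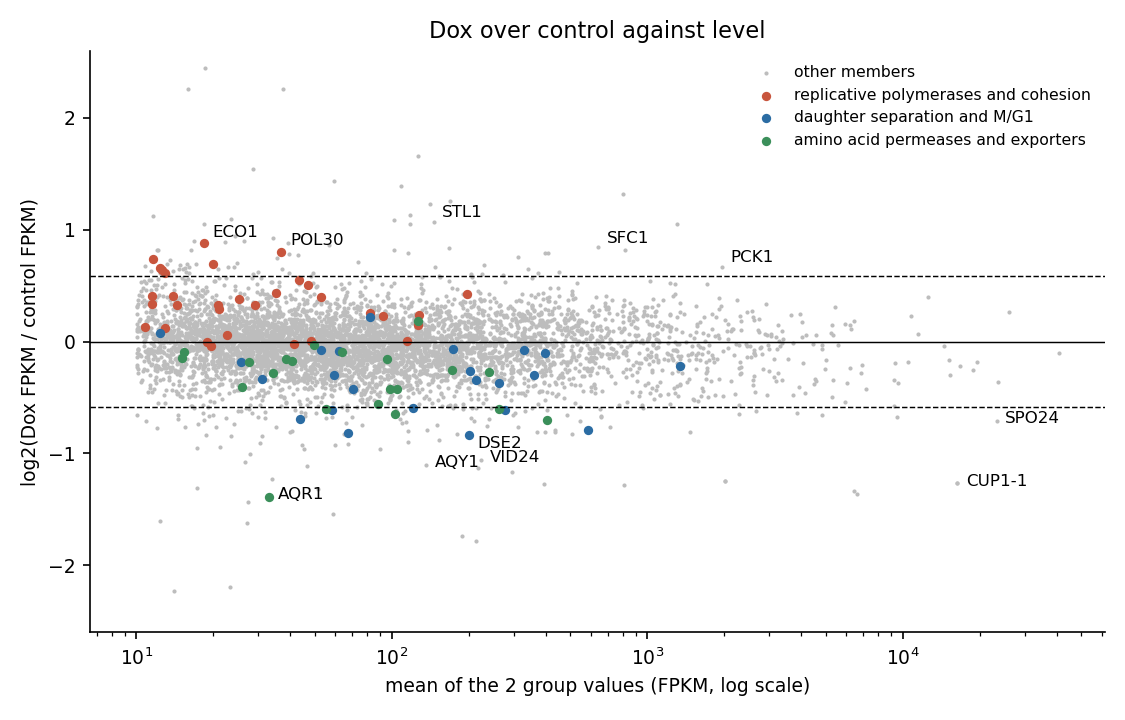
Log2 ratio of Dox over control (vertical axis) against the mean of the 2 group values in FPKM (horizontal axis, log scale) for each member, with 3 gene lists in colour and dashed lines at 1.5-fold. Polymerase and cohesion genes lie mostly above 0 at low levels, separation genes and amino acid permeases mostly below it, and 3 members lie outside the vertical range.

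Genes that copy DNA, hold it together, repair it or pack it gave 15 of the 87 rises and 0 of the falls, over 8 lists with 129 genes measured, histones included. The rises are 11.6% of these genes, beside 1.47% of all members with a ratio. Of the 15, RNR1, POL1, MRC1, MCD1 and PDS5 had control values under 10 FPKM and passed the level filter through their Dox value. The share without them was not computed. All 8 lists were written with earlier results of these data known, and that of condensin and Smc5-Smc6 after the values were seen, so the share is a description only. The stretches of promoter below are shown because the letters of the MCB recur in these genes. Each is the strand that reads towards the gene, from R64, and capitals mark the MCB.

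POL1: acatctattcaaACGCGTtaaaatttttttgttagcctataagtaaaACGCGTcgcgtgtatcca
CDC21: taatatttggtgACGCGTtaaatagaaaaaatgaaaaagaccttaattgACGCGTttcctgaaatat
MRC1: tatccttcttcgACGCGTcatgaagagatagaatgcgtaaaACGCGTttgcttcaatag
ASF1: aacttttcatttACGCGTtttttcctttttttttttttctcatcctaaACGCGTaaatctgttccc
RLF2: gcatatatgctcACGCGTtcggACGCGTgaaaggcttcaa
POL30: ccaaaacgcgaaACGCGTaacttttttttt
ECO1: aatttaacgtcaACGCGTaatagaaaaaaa
SMC1: aaagtatcaataACGCGTaaagtgaataga

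The stretch of POL1 is chrXIV:429867-429931 on the plus strand, 220 to 156 bases before the start codon. The stretch of CDC21 is chrXV:467693-467759 on the minus strand, 170 to 104 bases before the start codon. The stretch of MRC1 is chrIII:22204-22262 on the minus strand, 156 to 98 bases before the start codon. The stretch of ASF1 is chrX:196059-196124 on the plus strand, 228 to 163 bases before the start codon. The stretch of RLF2 is chrXVI:594232-594271 on the plus strand, 244 to 205 bases before the start codon. The stretch of POL30 is chrII:425944-425973 on the minus strand, 207 to 178 bases before the start codon. The stretch of ECO1 is chrVI:207306-207335 on the plus strand, 146 to 117 bases before the start codon. The stretch of SMC1 is chrVI:119295-119324 on the plus strand, 134 to 105 bases before the start codon. The MCB stood in these stretches 2 times in POL1, CDC21, MRC1, ASF1 and RLF2 and 1 time in POL30, ECO1 and SMC1. In POL30 the letters of an SCB overlap the MCB by 1 base.

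RNR1 codes for the large subunit of ribonucleotide reductase, the enzyme that makes deoxynucleotides. It was at 15.3 FPKM with Dox and 8.68 FPKM in controls (log2 ratio 0.82), and it passed the level filter through its Dox value. CDC21, thymidylate synthase, was at 29.4 FPKM with Dox and 18.6 FPKM in controls (0.66). Nucleotide supply did not move as a block. Of 11 such genes measured, these 2 rose and none fell, RNR2, the small subunit, was at 305 FPKM with Dox and 273 in controls, and SML1, a protein that inhibits the reductase, had a log2 ratio of -0.34.

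POL30, the sliding clamp PCNA, was at 46.97 FPKM with Dox and 26.9 FPKM in controls (log2 ratio 0.80). POL1, the catalytic subunit of the polymerase that starts each new strand, was at 14.5 FPKM with Dox and 8.72 in controls (0.74). It passed the level filter through its Dox value. POL2, the leading-strand polymerase, was at 15.7 FPKM with Dox and 10.3 in controls (0.61). In all, 3 of 20 genes for polymerases, the clamp and its loader rose and 0 fell, and 19 of the 20 had ratios above 0. Their median log2 ratio was 0.39, beside -0.03 over all members. At 1.3-fold, 11 were higher and 0 lower, against 4.62% higher and 7.68% lower among all members. A further 2 genes of the list were below the level filter. Among those short of 1.5-fold were POL31 (0.55), a subunit of the lagging-strand polymerase, RAD27 (0.51), the nuclease that trims Okazaki fragments, and CDC9 (0.41), the DNA ligase.

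Origin and helicase genes had smaller ratios as a list. MRC1, a fork protein that also carries the checkpoint signal, was at 13.8 FPKM with Dox and 8.95 FPKM in controls (0.63). It was the 1 of 24 such genes that rose, and it passed the level filter through its Dox value. The median of the list was 0.15. MCM3, MCM4, MCM5 and MCM7 of the replicative helicase had log2 ratios of 0.25, 0.25, 0.35 and 0.27, and ORC5 of the origin recognition complex had -0.34. CDC45, which the helicase needs at the fork, was below the level filter, at 6.35 FPKM with Dox and 3.60 FPKM in controls (0.82). The checkpoint kinase gene RAD53 was below it too, at 6.05 FPKM with Dox and 3.43 in controls (0.82).

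Sister chromatid cohesion, by which the 2 copies of a chromosome stay joined until they separate, also gave rises. ECO1, the acetyltransferase that locks cohesin onto DNA, was at 23.8 FPKM with Dox and 12.98 FPKM in controls (0.88). The cohesin subunit genes SMC1, at 24.6 FPKM with Dox and 15.2 in controls (0.69), and MCD1, at 15.3 FPKM with Dox and 9.80 in controls (0.64), rose too. PDS5, which binds cohesin and maintains it, was at 15.2 FPKM with Dox and 9.61 in controls (0.66). These were 4 of 12 members of the list. MCD1 and PDS5 had control values under 10 FPKM and passed the level filter through their Dox value. A further 4 cohesion genes were below the filter. The loader gene SCC4 had a log2 ratio of -0.02.

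Among repair genes, RTT107, a scaffold at stalled and damaged forks, was at 17.9 FPKM with Dox and 11.5 FPKM in controls (0.65). RMI1, partner of the helicase Sgs1 and the topoisomerase Top3, was at a far higher level, 415 FPKM with Dox and 265 in controls (0.65). These 2 of 28 checkpoint and recombination genes rose, none fell, and the median was 0.12. SMC6, of a complex related to cohesin that acts in repair, was at 18.98 FPKM with Dox and 12.4 in controls (0.62). Transcripts known for induction by DNA damage did not stand out. HUG1 was at 22.2 FPKM with Dox and 18.3 in controls (0.28), and RNR3, under the level filter, was at 4.77 FPKM with Dox and 5.52 in controls (-0.21).

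Of the proteins that place histones on new DNA, RLF2, the large subunit of chromatin assembly factor CAF-1, was at 54.3 FPKM with Dox and 31.8 FPKM in controls (0.77), and ASF1 was at 91.7 FPKM with Dox and 56.05 in controls (0.71). The other CAF-1 subunits lay on either side of 0, CAC2 at 0.33 and MSI1 at -0.54. The histone genes, which are also transcribed in S phase, did not rise. None of 11 was past 1.5-fold or 1.3-fold, their median log2 ratio was -0.03, and they ranged from -0.26 for HTA1 to 0.31 for CSE4, the centromeric form.

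**Figure D2:**
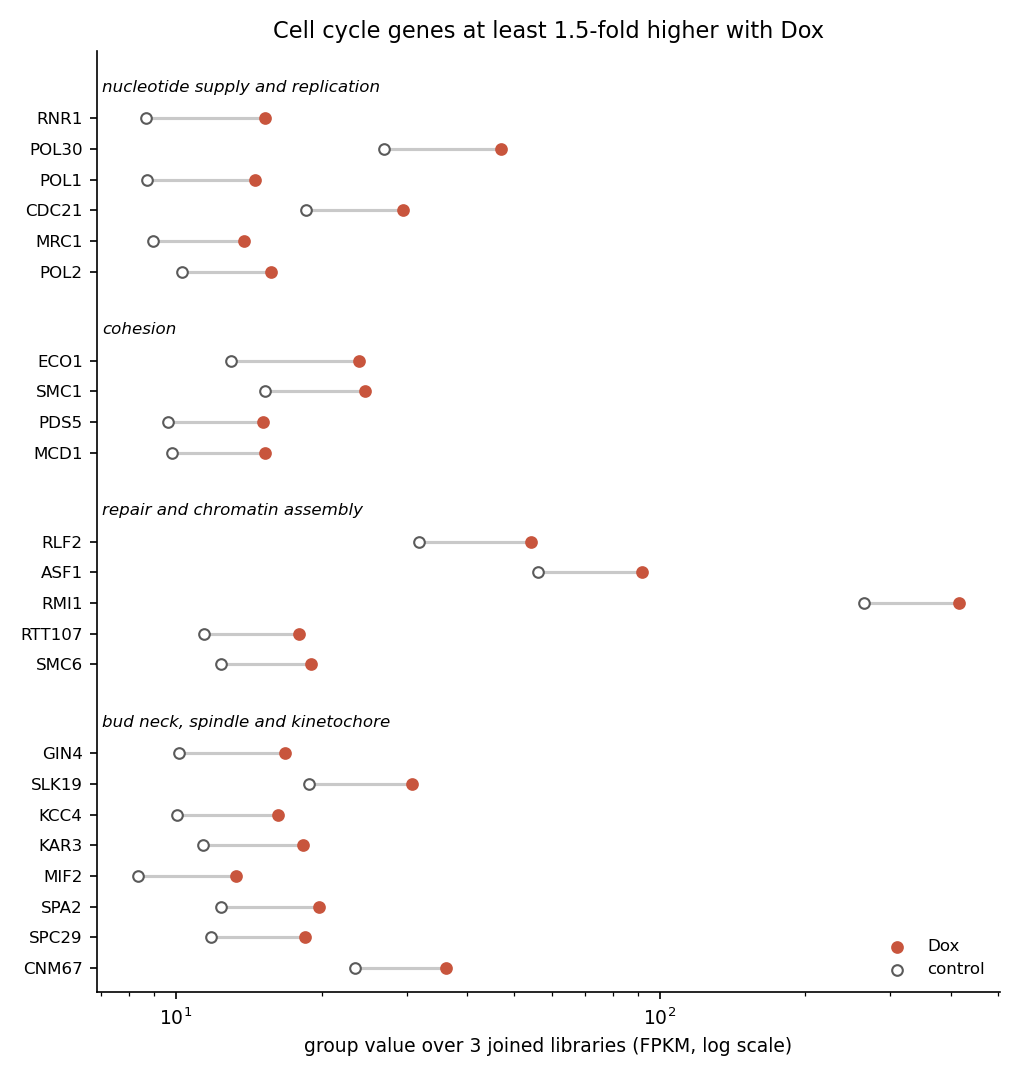
Group values in FPKM (log scale) with Dox (filled) and in controls (open) for cell cycle genes that were at least 1.5-fold higher, by function. Each point joins 3 libraries and has no error bar. RMI1, at 415 FPKM with Dox, stands well above the rest, and RNR1 has a control value of 8.68 FPKM.

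Among genes of the bud neck and the spindle, a few rose. GIN4, a kinase that organizes the septin ring at the bud neck, was at 16.8 FPKM with Dox and 10.1 FPKM in controls (0.73). Its relative KCC4 was at 16.3 FPKM with Dox and 10.04 in controls (0.70). The minus-end kinesin gene KAR3 was at 18.3 FPKM with Dox and 11.4 in controls (0.69). These were the 3 of 15 in their list that rose, with a median of 0.32, and HSL1 (0.54) and SWE1 (0.47), which act in the same neck checkpoint on Cdc28, lay just short of it. The septin CDC12 had a ratio of 0.20. SPA2, a scaffold of polarized growth, was at 19.7 FPKM with Dox and 12.4 in controls (0.67), alone among 19 polarity genes.

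At the poles of the spindle, SPC29 was at 18.5 FPKM with Dox and 11.8 FPKM in controls (0.65) and CNM67 at 36.1 FPKM with Dox and 23.5 in controls (0.62). Of 13 spindle pole body genes measured, 11 had ratios above 0, 7 were at least 1.3-fold higher, and the median was 0.39. The lists for the spindle pole body, kinetochore, condensin and polarity were written after the values were seen, and so were those for fatty acid oxidation, aldehyde dehydrogenases and Nrd1 termination. At the kinetochore, 2 of 35 genes rose, beside a median of 0.12. They were SLK19, at 30.8 FPKM with Dox and 18.9 in controls (0.71), and the centromere protein gene MIF2. MIF2 was at 13.3 FPKM with Dox and 8.36 in controls (0.67), and it passed the level filter through its Dox value.

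The cyclins and regulators of the same window leaned upward without passing 1.5-fold. None of 14 rose or fell, 13 had ratios above 0, and the median was 0.25. PCL1 (0.58), NRM1 (0.56), which represses MBF once S phase begins, CLN1 (0.53) and the S phase cyclin CLB5 (0.43) were highest, and CLN3, whose product starts the G1/S programme, was at -0.11. The genes of the later G2/M cluster had a median of 0.11. The 1 gene of that list that rose was ACM1, at 32.1 FPKM with Dox and 16.6 FPKM in controls (0.95). It codes for an inhibitor of the anaphase-promoting complex made in S phase, so its rise is not read as one of the later cluster. The mitotic cyclin CLB2 was at 0.11 and CDC20 at 0.04. TYC1, another inhibitor of that complex, is listed by systematic name only and was at 454 FPKM with Dox and 296 in controls (0.62). It is 120 bp long, a length at which ratios spread widely. In RNA from whole cultures, a larger share of cells in one phase and more RNA per cell in that phase cannot be told apart.

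The letters ACGCGT were counted in the 300 bases before the start codon of 5437 protein-coding members, where an occurrence is a description and not a bound site. The MCB reads the same on both strands, so each occurrence was counted a single time, and a window between divergent genes serves both. They occurred before 175 of these genes (3.22%). Among genes of at least 500 bp they occurred before 18 of 39 that rose (46.2%) and 1 of 69 that fell (1.45%), which was POT1. The risen genes with an MCB were POL30, POL1, POL2, MRC1, CDC21, ECO1, SMC1, MCD1, PDS5, SMC6, RTT107, ASF1, RLF2, ACM1, KCC4, MIF2, SPA2 and SEN34, a tRNA splicing endonuclease subunit. Of these, POL1, MRC1, MCD1, PDS5 and MIF2 had control values under 10 FPKM and passed the level filter through their Dox value. Among genes with a control of at least 10 FPKM, an alternative chosen after seeing the data, the letters occurred before 13 of 33 that rose (39.4%) and 2.97% of all. RNR1 had none in 300 bases and had it within 500. With 500 bases the shares were 53.8% of risen, 2.9% of fallen and 5.15% of all.

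Grouped by the number of copies, and not by ratio, the same members had higher ratios with more copies. The level filter still chose them by both group values. Among them POL1 and MRC1, with 2 copies, and MCD1, PDS5 and MIF2, with 1, passed it through their Dox value. With a control of at least 10 FPKM, 160 of 5389 genes held the letters, against 175 of 5437 without that limit. The copy classes were not computed under that limit. The median log2 ratio was -0.04 for 5262 genes without an MCB, 0.13 for 158 with 1 copy and 0.42 for 17 with 2 or more. At least 1.5-fold higher were 0.741%, 8.23% and 35.3% of them, in that order, and at least 1.3-fold higher 3.12%, 24.7% and 58.8%. The ratio also varied with length, with a median of 0.06 over 491 members of 3000 bp or more and -0.06 over 2201 of 1000 to under 2000 bp. Among protein-coding genes of 2000 bp or more the median was 0.34 for 41 genes with an MCB and -0.01 for 1140 without, and from 1000 to under 2000 bp it was 0.13 and -0.07. Most genes with the letters did not pass 1.5-fold, and SNA2 (-0.83) and POT1 (-0.71) fell. The SCB letters occurred before 23.1% of the same risen genes, 2.9% of the fallen and 3.7% of all, GIN4, SLK19 and SPC29 among the risen. Of the 15 motifs searched, on both strands, the others included named sites of Gcn4, GATA factors, Ste12, Hac1, Cbf1 and Pho4, Aft1, Ume6, Pdr1, Crz1, the ribosome biogenesis elements PAC and RRPE, and the STRE. Only MCB, SCB and the Ume6 core GCCGCC were at over 1.5 times their overall share before risen genes. The Ume6 core occurred before 15.4% of risen genes, 8.7% of fallen and 4.87% of all, so it was above its overall share on both sides. With 500 bases its shares were 15.4%, 13% and 9.29%, in that order.

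**Figure D3:**
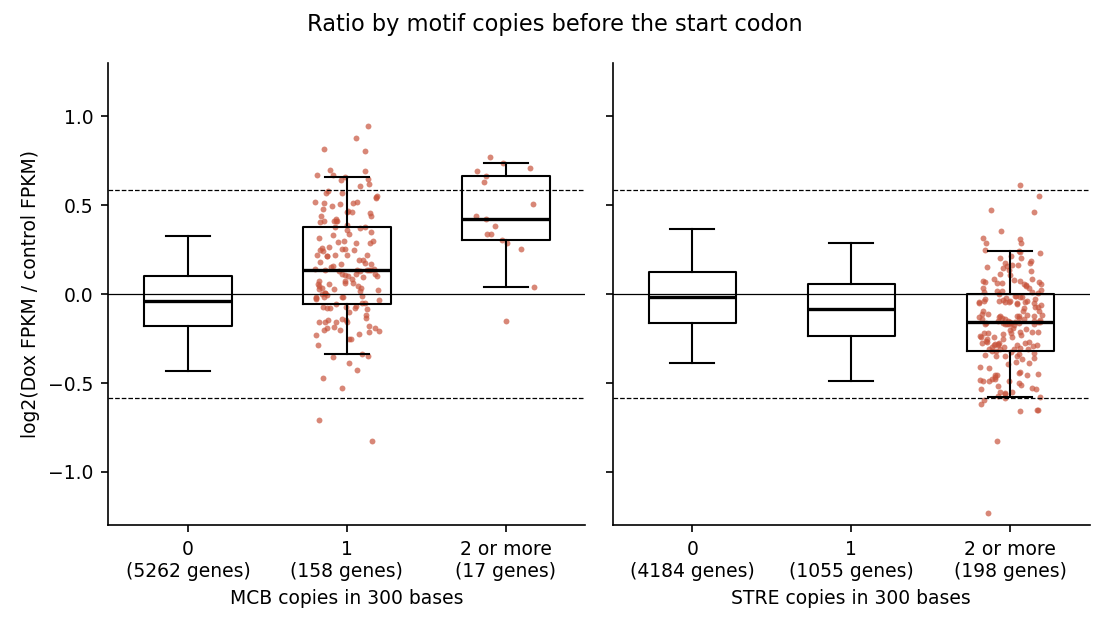
Log2 ratio of Dox over control for protein-coding members with 0, 1 or 2 or more copies of the MCB (left) or the STRE (right) in the 300 bases before the start codon. Boxes give the quartiles and median, whiskers the 5th and 95th percentiles, points single genes in classes under 200, and 11 genes lie outside the axis. The medians go up with MCB copies to 0.42 and down with STRE copies to -0.16.

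Cytosolic ribosomal protein genes were shifted upward together by a small amount. Of 138, 127 had ratios above 0, and the median was 0.21, beside -0.03 over all members. At 1.3-fold, 9 were higher and 1 lower, where 4.62% of all members were higher and 7.68% lower. RPL41B, at 1045 FPKM with Dox and 593 FPKM in controls (0.82), and RPL36B, at 391 FPKM with Dox and 231 in controls (0.76), rose. RPL41B is 78 bp long with a near-identical copy, so its value is uncertain. Mitochondrial ribosomal protein genes did not share the shift, with a median of 0.04 and none of 74 past 1.3-fold. The factors that assemble ribosomes had a median of 0.09, and DBP2, an RNA helicase, fell to 26.1 FPKM with Dox against 44.2 FPKM in controls (-0.76).

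Among metabolic genes, SFC1 and PCK1 rose, at much higher levels than most of the cell cycle genes. SFC1, the mitochondrial carrier that exchanges succinate for fumarate, was at 824 FPKM with Dox and 459.6 FPKM in controls (0.84). PCK1, phosphoenolpyruvate carboxykinase, which commits carbon to gluconeogenesis, was at 2414 FPKM with Dox and 1516 in controls (0.67). IDP2 (0.54), ICL1 (0.53), isocitrate lyase of the glyoxylate cycle, FBP1 (0.51), SIP4 (0.40) and MLS1 (0.34) were above 0 but short of 1.5-fold. Other genes of the list lay lower. ACS1, acetyl-CoA synthetase, fell to 82.5 FPKM with Dox against 126 FPKM in controls (-0.61), and the carnitine genes CAT2 (-0.51), CRC1 (-0.40) and YAT2 (-0.36) lay below 0. Over 18 genes 2 rose, 1 fell and the median was -0.06. FBP1 and PCK1 products are degraded through the Gid ubiquitin ligase, a step on protein that RNA values do not show. The gene for its receptor subunit, VID24, was at 145 FPKM with Dox and 302 FPKM in controls (-1.06). Of 9 genes of the ligase and its relatives, 1 fell, 8 lay below 0 and the median was -0.29. A link between VID24 and the RNA of FBP1 or PCK1 was not tested.

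STL1, the glycerol and proton symporter, had the highest ratio among genes of over 500 bp that overlap no other locus, at 197 FPKM with Dox and 93.9 FPKM in controls (1.07). NRG2, a glucose repressor protein, was at 50.3 FPKM with Dox and 29.1 in controls (0.79). INO1, which makes inositol phosphate for phospholipids, was at 283 FPKM with Dox and 176 in controls (0.68), and PIS1, which uses inositol to make phosphatidylinositol, fell to 156 FPKM with Dox against 251 FPKM in controls (-0.69). Of 24 ergosterol genes, ERG3, the C-5 desaturase, rose, at 183 FPKM with Dox and 122 in controls (0.59), and ERG4 (0.55), ERG6 (0.41) and ERG5 (0.41), which also act late in the pathway, were next, while the early-pathway genes ERG9 (-0.33), ERG12 (-0.25) and ERG8 (-0.23) were lowest with HMG2 (-0.32). BTN2, a chaperone that gathers misfolded proteins, was at 544 FPKM with Dox and 355 in controls (0.62). EAF7, of the NuA4 histone acetyltransferase, was at 328 FPKM with Dox and 217 in controls (0.60), and USO1, a vesicle tether, at 45.3 FPKM with Dox and 28.9 in controls (0.65).

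**Figure D4:**
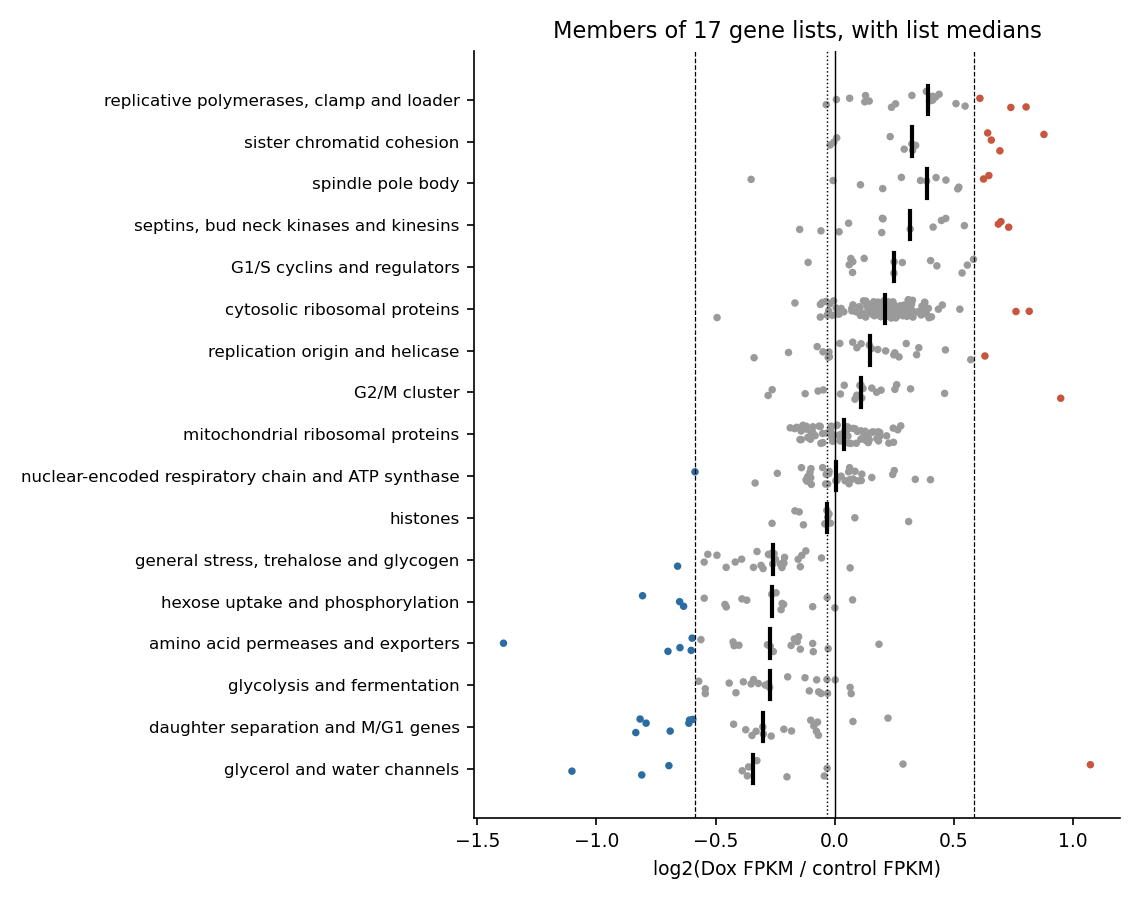
Log2 ratio of Dox over control for the members of 17 gene lists, with a black bar at each list median, a dotted line at the median of all members and dashed lines at 1.5-fold. Red members are at least 1.5-fold higher and blue ones at least 1.5-fold lower. Medians run from 0.39 for the polymerases to -0.34 for glycerol and water channels.

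The falls began with the enzymes by which a daughter cell parts from its mother. Of 23 genes of separation and of the M/G1 interval, 7 fell and none rose, where 2.3% of all members fell. In this list 21 had ratios below 0, and the median was -0.30, beside -0.03 over all members. DSE2, a daughter-specific glucanase, was at 144 FPKM with Dox and 257 FPKM in controls (-0.83). SCW11, another glucanase, was at 48.8 FPKM with Dox and 85.97 in controls (-0.82). CTS1, the chitinase that dissolves the primary septum, was at 428 FPKM with Dox and 741 in controls (-0.79). EGT2 (-0.69) and SUN4 (-0.61), which act in the same step, the wall protein gene PIR1 (-0.61) and AMN1 (-0.60), which turns off mitotic exit in daughters, fell as well.

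Other wall genes were divided. SCW4, a glucanase, fell to 261 FPKM with Dox against 402 FPKM in controls (-0.62), and SED1, an abundant wall protein of late growth, to 2096 FPKM with Dox against 3214 in controls (-0.62), while YPS1 (0.53), SCW10 (0.45), CHS1 (0.42), CHS3 (0.37) and FKS1 (0.36) lay above 0.

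Among transporters, AQR1, a plasma membrane exporter of amino acids and weak acids, had the lowest ratio of any gene of over 500 bp that overlaps no other locus, at 18.3 FPKM with Dox and 47.9 FPKM in controls (-1.39). The uptake genes BAP2, for branched-chain amino acids, at 308 FPKM with Dox and 501 in controls (-0.70), and LYP1, for lysine, at 79.8 FPKM with Dox and 125 in controls (-0.65), fell too. GNP1, for glutamine, was at 44.03 FPKM with Dox and 66.9 in controls (-0.60), and AGP1, of broad range, at 209.6 FPKM with Dox and 317 in controls (-0.60). Of 21 permease and exporter genes and their sensors, 20 lay below 0, 5 fell, and the median was -0.27. AQR1 was also the lone fall among 21 multidrug transport genes, where PDR5, the main drug efflux pump, had a ratio of -0.29 and its regulator PDR1 0.08. ATO2, a plasma membrane protein of the ammonium export family, fell to 320.0 FPKM with Dox against 552 FPKM in controls (-0.79).

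Of 10 genes for the breakdown of arginine and proline, 3 fell and none rose by 1.5-fold. CAR1, arginase, was at 80.6 FPKM with Dox and 150.3 FPKM in controls (-0.90). CAR2, ornithine transaminase, was at 46.5 FPKM with Dox and 87.9 in controls (-0.92), and PUT1, proline oxidase, at 238 FPKM with Dox and 371 in controls (-0.64). Their regulators ARG80 (-0.08), ARG81 (-0.17), UME6 (0.22) and PUT3 (0.05) stayed within 1.3-fold. None of 10 arginine synthesis genes passed 1.3-fold (median 0.09), nor did any of 36 other amino acid synthesis genes pass 1.5-fold (median -0.08). Genes under nitrogen catabolite repression had a median of -0.10 with none past 1.5-fold.

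Of 12 water and glycerol genes, 3 fell and 1 rose. The aquaporin gene AQY1 was at 86.6 FPKM with Dox and 186 FPKM in controls (-1.10), and AQY3, a putative channel, at 49.1 FPKM with Dox and 86.1 in controls (-0.81). GPP2, the phosphatase that releases glycerol, was at 82.5 FPKM with Dox and 134 in controls (-0.70). With STL1 rising and 3 genes falling, 10 of 12 lay below 0 and the list had the lowest median of those drawn, -0.34. GUT1, glycerol kinase, was at 0.29.

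Sugar entry showed falls in both enzymes and regulators. GLK1, glucokinase, was at 1776 FPKM with Dox and 2788 FPKM in controls (-0.65). MIG1, the main glucose repressor, was at 86.3 FPKM with Dox and 134 in controls (-0.63), and TDA1, a kinase that acts on hexokinase Hxk2, at 29.1 FPKM with Dox and 50.9 in controls (-0.81). HXT1, a low-affinity hexose carrier, had a ratio of -0.46 and the hexokinase gene HXK1 -0.09. No glycolytic or fermentative gene of 23 passed 1.5-fold, yet 20 lay below 0, 6 were at least 1.3-fold lower and the median was -0.27, with pyruvate kinase CDC19 at -0.44 and TDH3 at -0.34. All 5 aldehyde dehydrogenase genes lay below 0, of which ALD3 fell, at 176 FPKM with Dox and 296 in controls (-0.75). Fatty acid oxidation had 14 of 15 genes below 0 and 1 fall, in POT1, the peroxisomal thiolase, at 159.6 FPKM with Dox and 261 in controls (-0.71).

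**Figure D5:**
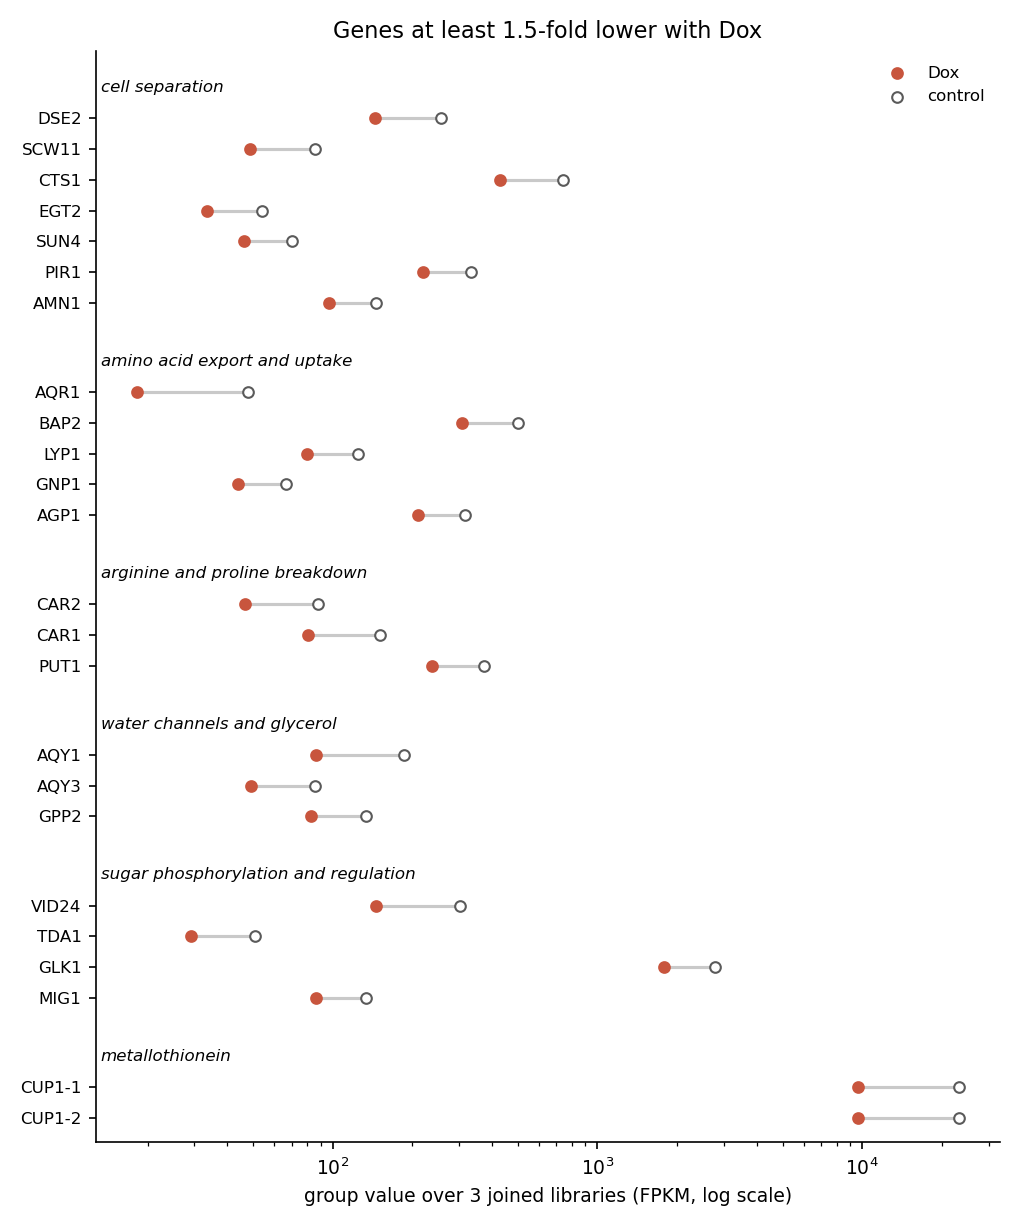
Group values in FPKM (log scale) with Dox (filled) and in controls (open) for genes that were at least 1.5-fold lower, by function. Each point joins 3 libraries and has no error bar, and the pairs span levels from AQR1, at 18.3 FPKM with Dox, to CUP1-1, at 9593 FPKM with Dox.

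CUP1, the copper-binding metallothionein, was among the most abundant transcripts that fell. CUP1-1 was at 9593 FPKM with Dox and 23103 FPKM in controls (-1.27), and CUP1-2 at 9608 FPKM with Dox and 23123 in controls (-1.27). These are near-identical tandem copies, and the loci that lie over them (RUF5-1, RUF5-2, YHR052W-A and YHR054W-A, from -1.37 to -1.24) share their span, so the 6 values are not separate observations. No other copper or zinc gene of 16 passed 1.5-fold. The copper-sensing activator gene CUP2 was at 0.08 and the copper carrier CTR1 at 0.29. In iron uptake, FIT2 (-0.61) and FIT3 (-0.60), wall proteins that hold iron chelates, fell, and the carrier genes FTR1 (-0.18) and FET3 (0.12) did not pass 1.3-fold.

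Genes of the general stress response and of reserve sugars leaned downward without large changes. Of 29, 28 lay below 0 and the median was -0.26. SPI1, a wall protein of stationary phase, fell to 3734 FPKM with Dox against 5899 FPKM in controls (-0.66), MSN4 was at -0.55 and MSN2 at -0.21. HSP30, a stress protein of the plasma membrane, fell to 7284 FPKM with Dox against 11634 in controls (-0.68), the lone fall among 20 heat shock genes, and TSA2, a peroxiredoxin, to 320.4 FPKM with Dox against 488 in controls (-0.61). PDE2, the phosphodiesterase that removes cAMP, was at 30.6 FPKM with Dox and 58.2 FPKM in controls (-0.93), and BCY1, the subunit that holds protein kinase A inactive, at -0.52. The STRE letters, counted on both strands, occurred before 31 of 69 fallen genes of at least 500 bp (44.9%), 6 of 39 risen ones (15.4%) and 23% of all. Those of GLK1 and SPI1 are shown, with the letters or their reverse complement in capitals.

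GLK1: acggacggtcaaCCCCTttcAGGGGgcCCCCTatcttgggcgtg
SPI1: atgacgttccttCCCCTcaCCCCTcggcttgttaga

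The stretch of GLK1 is chrIII:50644-50687 on the plus strand, 194 to 151 bases before the start codon. The stretch of SPI1 is chrV:468093-468128 on the plus strand, 277 to 242 bases before the start codon. The protein-coding members, which passed the level filter, were also grouped by STRE copies. The median log2 ratio was -0.02 for 4184 genes without the letters, -0.08 for 1055 with 1 copy and -0.16 for 198 with 2 or more. Of these, 1.34%, 3.41% and 5.05% fell. With 500 bases the last share was 5.16% of 465 genes.

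The other falls crossed many functions. ERO1, which drives disulfide formation in the endoplasmic reticulum, was at 21.3 FPKM with Dox and 39.8 FPKM in controls (-0.90), alone among 18 folding genes, of which the chaperone KAR2 was at -0.11. URA10, an orotate phosphoribosyltransferase, was at 415 FPKM with Dox and 677 in controls (-0.71), ADE4, the entry enzyme of purine synthesis, at 20.3 FPKM with Dox and 31.2 in controls (-0.62), and SAM1, S-adenosylmethionine synthetase, at 11.3 FPKM with Dox and 17.8 in controls (-0.66). NRD1, of the complex that ends noncoding transcripts, was at 22.2 FPKM with Dox and 34.4 in controls (-0.64). MFA2, which codes for the a-factor pheromone, fell to 3027 FPKM with Dox against 4712 FPKM in controls (-0.64), while MFA1 was at 0.37. MFA2 is 117 bp long, a length at which ratios spread widely. SPO24, which codes for a small protein known from sporulation, at 17717 FPKM with Dox against 28983 in controls (-0.71), was the most abundant member of all those that fell. None of 12 calcium, 18 phosphate and 18 vitamin genes passed 1.5-fold, with medians of -0.08, -0.15 and 0.02. SNO3, a vitamin B6 gene that is not in the list, rose, at 58.2 FPKM with Dox and 38.7 in controls (0.59), and its near-identical copy SNO2 was at 0.53, so both values are uncertain.

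Tetracyclines are known as inhibitors of bacterial-type ribosomes, which mitochondria also have. In 3 lists of nuclear genes for mitochondrial proteins the medians lay near 0. None of 17 mitochondrial chaperone and protease genes passed 1.3-fold (median -0.09). Of 19 citric acid cycle genes none passed 1.5-fold, 3 were at least 1.3-fold lower, 0 at least 1.3-fold higher, and the median was 0.05. Of 35 genes for the respiratory chain and ATP synthase, COX5B, the form of a cytochrome oxidase subunit used at low oxygen, fell to 435 FPKM with Dox against 653 FPKM in controls (-0.59), its aerobic counterpart COX5A was at 0.11, and the median was 0.0045. Of 55 loci on mitochondrial DNA only 13 were members, and the libraries were mRNA-selected, so no reading of that genome is given beyond their median of 0.09.

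Loci that the table lists by systematic name alone made up 3889 of the 5912 members with a ratio and 53 of 87 rises and 111 of 136 falls. That is 1.36% and 2.85% of them, against 1.68% and 1.24% of members with a name. Many have a gene symbol in RefSeq, which is used above, as for AQR1, STL1 or DSE2. This was so for 19 of the rises and 59 of the falls. A further 15 and 20 are RefSeq loci with no symbol, and 19 and 32 matched no RefSeq locus.

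The largest ratios in this class belong to loci that are short or that lie over another gene. YLR364C-A, listed at 24.7 FPKM with Dox and 0.00129 FPKM in controls, and YGR068W-A, at 204 FPKM with Dox and 5.08 in controls (5.33), both overlap another listed locus, and how fragments were divided between such partners is not given in the sources used here. RRT15, a 189 bp gene, was at 57.6 FPKM with Dox and 6.54 in controls (3.14), YBL100W-C, of 120 bp, at 26.2 FPKM with Dox and 5.50 in controls (2.25), and YHR022C-A, of 90 bp, at 192 FPKM with Dox and 60.5 in controls (1.66). On the falling side, YGL006W-A, of 111 bp, was at 4.94 FPKM with Dox and 23.2 FPKM in controls (-2.23), and YBL071C-B, of 99 bp, at 8.37 FPKM with Dox and 38.3 in controls (-2.19). The others of the 12 largest rises over all members were, by log2 ratio, SNR6 (2.45), YBR141W-A (2.26), snR38 (1.54), YFR012W-A (1.44), YNL103W-A (1.39), YAR035C-A (1.32) and SNR24 (1.25). Among loci listed by systematic name only, YNR075C-A (1.23) and YFL065C (1.12) completed the 12. The others of the 12 largest falls were snR56 (-1.78), SNR74 (-1.74), snR58 (-1.62), YOR381W-A (-1.60), YDR354C-A (-1.54), PLS1 (-1.43), AQR1 (-1.39), YHR054W-A (-1.37), YHR052W-A (-1.34) and ADF1 (-1.32), and YDL240C-A (-1.31) completed the 12 by systematic name only. Of these largest rises and falls, those that overlap no other listed locus are at most 189 bp long, with the exception of AQR1. Among longer loci that overlap nothing, YNR014W (20.2 FPKM with Dox, 47.5 in controls, log2 ratio -1.23) and YOR338W (30.7 FPKM with Dox, 59.6 in controls, log2 ratio -0.96) fell, and RefSeq gives neither product a function. TVS1 (-0.62) and BOP2 (-0.59), also of unknown role, fell, as did the mannitol dehydrogenase gene DSF1 (-0.70). Of all risen and fallen members, 35 and 63 were protein-coding, of at least 500 bp and free of overlap. POL30, CDC21, KCC4, CTS1, CAR2, GNP1, GLK1 and RPL36B among the named genes overlap another listed locus, and whether strand was used in counting is not given in the sources used here.

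The values with Tet and 4-ED stand beside those with Dox for a few members, each against the same controls and scaled in its own table, so likeness between them was not tested. RNR1 had log2 ratios of 0.82 with Dox, 0.67 with Tet and 0.19 with 4-ED. ECO1 had 0.88, 0.68 and 0.36 in the same order, and POL1 0.74, 0.62 and 0.31. These are highest with Dox, but of the 15 risen genes of the DNA lists 9 had a higher ratio with Tet than with Dox, among them ASF1 (0.71, 0.87 and 0.29) and CDC21 (0.66, 0.84 and 0.56), and 1 had a higher ratio with 4-ED. SFC1 had 0.84, 1.15 and 1.33, and PCK1 0.67, 1.12 and 1.18, so the carrier and the carboxykinase were lowest with Dox. AQR1 had -1.39, -0.58 and -0.50, and CUP1-1 -1.27, -0.91 and -0.11, so both were lower with Dox than with either other drug. ACS1 had -0.61, -0.02 and 0.14, and SPO24 -0.71, 0.09 and -0.03, and both were past 1.5-fold with Dox only, a difference with no replicate check.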

How the data were processed

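RNA was measured by sequencing of mRNA-selected libraries from 12 cultures, 3 in each of 4 groups, which were assigned from the sample titles. After FastQC, the authors aligned reads to R64 (Bowtie2) and compared each treatment with the controls in Cuffdiff, on Ensembl gene models. Versions are not given in the sources used here. The values the authors deposited are FPKM, 1 for each group and locus over 3 joined libraries, scaled within each comparison. The tables also hold Cuffdiff's fold change, test statistic, p and q, which were not used.

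Of the tables' loci, 6628 had status OK, 433 NOTEST and 19 HIDATA. The log2 ratio of Dox to control FPKM was computed without a pseudocount where the mean of both was at least 10 FPKM and both were above 0. No test was run: the tables give no value per library, Cuffdiff's test columns are the study's own comparison, and whole reads could not be recovered from joined values. Depth per gene was not estimated. Whether the cultures of a group had separate starters is not clear from the methods.

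Symbols, lengths and promoters came from RefSeq R64. Of 7080 loci, 5999 matched a locus tag and 5363 agreed in start and end with the table. Lengths of the others are the span in the table, which joins overlapping loci. Promoters were the 300 bases before the start codon, with 500 as an alternative. Named were the 12 largest rises and falls, those listed by systematic name, up to 4 members of each list and its defining members, loci at 0 in one group and genes the study discusses. More were named after their values were seen. The members and lists were chosen with earlier results of these data known. The ratio, count and motif steps were tested on simulated data. Python 3.11.15, numpy 2.4.6, pandas 2.3.3 and matplotlib 3.10.9 were used.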

Additional observations from a re-analysis of the deposited data

How the results depend on the processing

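No replicate check was computed here, and Cuffdiff's p and q were not used. No paired analysis was possible because each group has a single joined value, and leaving out a replicate was not possible for the same reason. Against 87 rises and 136 falls, the counts were 29 and 68 at a mean of at least 100 FPKM, 163 and 245 with no filter on low values, 54 and 87 for loci of at least 500 bp, 21 and 27 at 2-fold, and 273 and 454 at 1.3-fold, which was added after the data were seen. Fewer or more loci pass by construction. Centring on the median gave 100 and 112, and a pseudocount of 1 FPKM 78 and 132. These left 13 (pseudocount) and 24 (centring) of the 223 loci past 1.5-fold inside it, and none changed sign. At a mean of at least 1 FPKM, for protein-coding genes and without overlapping loci the counts stayed within 1.5 times. List medians moved by less than 0.1 under the pseudocount and the centring, and 18 of 52 moved more at a mean of at least 100 FPKM, where low genes such as those of replication drop out. The rises in cell cycle genes rest on low values, most under 60 FPKM with Dox.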

Other observations

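Small structural RNAs went both ways. Of 76 small nucleolar and nuclear RNA loci, 14 were at least 1.5-fold higher and 10 at least 1.5-fold lower, around a median log2 ratio of 0.02. Over all members with a ratio, 1.47% were higher and 2.3% lower. Among members of 100 to under 200 bp the shares were 12.6% and 13.3%, and under 100 bp 21.6% and 27%. Short loci thus often passed 1.5-fold, and the counts are not read as a trait of these RNAs. SNR6, the U6 spliceosomal RNA, was at 31.4 FPKM with Dox and 5.76 FPKM in controls (2.45), and SNR14, the U4 RNA, at 73.5 FPKM with Dox and 40.4 in controls (0.86). The guide RNA snR56 was at 95.6 FPKM with Dox and 329 FPKM in controls (-1.78), and SNR74 at 86.7 FPKM with Dox and 289 in controls (-1.74). SCR1, the RNA of the signal recognition particle, was at 246 FPKM with Dox and 162 in controls (0.60). These RNAs are short and mostly lack a poly(A) tail, and the libraries were mRNA-selected; the part of this in their values was not tested.

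Listed at 0 with Dox were snR67 (control 486 FPKM), YOR161W-A (526), tS(AGA)L (101), YKL145W-A (92.6) and tL(UAA)B2 (53.7). Listed at 0 in controls were YAL037C-A (Dox 55.8 FPKM), YBL039C-A (44.2), YPL152W-A (34.6) and YER090C-A (27.6). A value of 0 can be a failed estimate, as for HSP12, an abundant stress gene with status HIDATA that was listed at 0 in both groups, so no fold is given. By length, 21.6% of 37 members under 100 bp were at least 1.5-fold higher and 27% lower, against 0.682% and 2.27% of 2201 members of 1000 to under 2000 bp.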
